A study of Ambystoma mexicanum with 17 samples.

Results

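PRRX1, PRRX2, MSX1, MSX2, SALL4, LMO2, KAZALD1 and FSTL1 were followed as 8 regulators. The list is named for the blastema mesenchyme, the connective tissue-like cells that build a regenerating axolotl limb. That name does not place the reads of a gene in those cells. Each library mixes cell types, and which cells gave the reads of each regulator was not tested. The 8 were chosen by name, as genes known from limb buds and blastemas, but with earlier results of these data known. Shares of all genes beside counts of the 8, or of the gene lists below, are therefore descriptions and no test of a set. All 8 were present among the 122775 gene rows of the files. All 8 also passed the filter on low counts, which left 19398 genes for testing. The counts carry no gene lengths, so levels are compared between libraries of the same gene and not between genes.

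A blastema forms when connective tissue cells under a wound epithelium lose their differentiated state, divide and take up limb bud genes again. Among those genes, the paired-related homeobox factors PRRX1 and PRRX2 mark limb mesenchyme, and the msh homeobox factors MSX1 and MSX2 are known targets of BMP signals. SALL4 is a spalt-family zinc finger factor, and LMO2 is a LIM-only adaptor known in mouse from blood and vessel development. KAZALD1 encodes a secreted protein with IGF-binding protein-like and Kazal-type domains that is known in axolotl blastemas, and FSTL1 encodes a secreted follistatin-like glycoprotein that binds ligands of the BMP and TGF-beta family.

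Polyadenylated RNA was sequenced from forelimb tissue of d/d axolotls in 17 libraries and 4 groups. The groups were posterior blastemas with 25 uM U0126 (n = 5), a compound that blocks MEK, the kinase upstream of ERK, posterior blastemas without it (n = 4), anterior blastemas (n = 5) and uninjured tissue (n = 3). Blastemas followed deviation of a nerve and were taken at day 10 together with their wound epithelium, so each library mixes mesenchyme with epithelium and other cells. Both Holtfreter's solution and DMSO appear in the labels, and which one the untreated blastemas received is not stated. Nor do the labels give animals, so the p-values speak only of the spread among these 17 libraries, which may be technical.

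Each library held 34181446 to 53856865 counts in genes. Markers of connective tissue, macrophages and epithelium had reads, which does not tell wound epithelium from uninjured epidermis. All 11 connective tissue markers and all 9 macrophage markers were tested, and 12 wound epithelium and epidermis markers summed to 3462 to 6541 CPM (counts per 1000000 counts of a library after scaling). The lowest sum was in posterior replicate 1 and the highest in uninjured replicate 1, and the keratin genes KRT5 and KRT17 were absent from the gene rows. Uninjured replicate 1 and U0126 replicate 5 were taken as standing apart from their groups. Over all genes tested, their mean Pearson r with the rest of their group was 0.897 and 0.931, the lowest of each group. The other libraries were at 0.930 and 0.913 in uninjured tissue and at 0.941 to 0.953 with U0126. The matrix gene TNC, chosen after its values were seen, was at 102 CPM in U0126 replicate 5 and at 444 to 1134 CPM in the other U0126 libraries. It was at 1329 CPM in uninjured replicate 1 and at 71.6 and 78.4 CPM in the other uninjured libraries. TNC is itself one of the blastema and limb mesenchyme genes counted below. Uninjured replicate 1 was also the highest of its group for 6 regulators, and U0126 replicate 5 the lowest for 6. Leaving them out thus lowers the reference level of uninjured tissue and raises that of U0126 for those regulators by itself. For LMO2, which was lowest in uninjured replicate 1 and highest in U0126 replicate 5 within their groups, it does the reverse. Counts of genes called below are also given without both libraries, a choice made after the data were seen, and calls gained that way are no separate support. U0126 replicate 4, which was kept in those counts, was the highest of its group for 7 regulators. Fits without it thus lower the U0126 level of those 7 by themselves, and calls gained there are no separate support either.

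Of the 8 regulators, 7 had a lower fitted level in posterior blastemas with U0126 than in posterior blastemas, as did 50.2% of all genes. PRRX2, KAZALD1 and FSTL1, 3 of them, passed the test as lower, against 3.99% of all genes. Those calls depended on single libraries. In 9 fits that each left out 1 library, KAZALD1 kept its call in 1, PRRX2 in 4 and FSTL1 in 6. PRRX1, PRRX2, SALL4 and FSTL1 had higher levels in every anterior and every posterior library than in every uninjured library. None of those differences passed the test. The same separation from uninjured tissue held for 5.8% of all genes in anterior and 8.94% in posterior blastemas. KAZALD1 had its highest levels in posterior blastemas and low levels in the other 3 groups. LMO2, MSX1 and MSX2 had their highest group means in anterior blastemas.

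**Figure D1:**
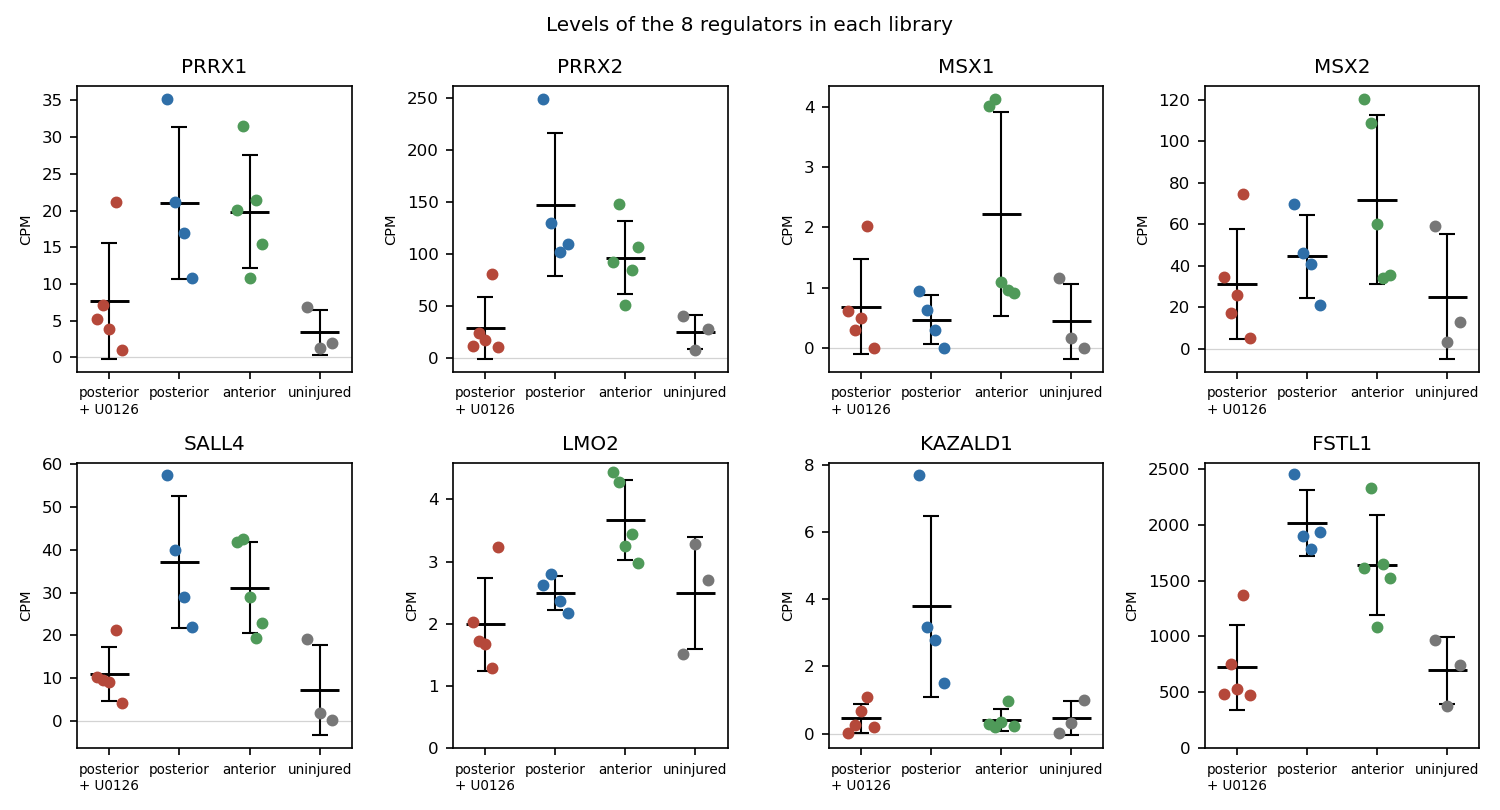
Levels of the 8 regulators in CPM (vertical axes, linear, 1 panel per gene), with a point per library, the group mean as a bar and the SD as whiskers. Posterior blastemas with U0126 stand on the left; their PRRX2 points, 10.5 to 81.0 CPM, all lie below the posterior points at 102 CPM and above.

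PRRX2, one of the paired-related factors, was at 11.8, 24.7, 17.8, 81.0 and 10.5 CPM in posterior blastemas with U0126. It was at 248.9, 130.2, 101.8 and 109.8 CPM in posterior blastemas, at 92.3, 148, 51.3, 85.1 and 107 CPM in anterior blastemas, and at 40.3, 7.98 and 28.1 CPM in uninjured tissue. All U0126 libraries were below all posterior libraries, U0126 replicate 4 lay inside the anterior range, and the other U0126 libraries lay inside the uninjured range. Its mean was 29.2 ± 29.5 CPM with U0126 (SD, n = 5), 148 ± 68.5 CPM in posterior blastemas (SD, n = 4), 96.8 ± 35.3 CPM in anterior blastemas (SD, n = 5) and 25.5 ± 16.3 CPM in uninjured tissue (SD, n = 3). PRRX2 fell with U0126 relative to posterior blastemas by 2.34 ± 0.59 (SE) on the log2 scale, which is 5.06-fold lower, with an adjusted p of 0.0293 in edgeR's quasi-likelihood test. Without U0126 replicate 4 it fell by 3.19 on the log2 scale, with an edgeR adjusted p of 0.00272. Its log2 fold change was 1.93 ± 0.69 (SE) in anterior blastemas over uninjured tissue and 2.54 ± 0.72 (SE) in posterior blastemas over uninjured tissue, with edgeR adjusted p of 0.136 and 0.0684.

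PRRX1, the other paired-related factor, was at 5.27, 7.08, 3.90, 21.2 and 1.003 CPM in posterior blastemas with U0126. It was at 35.2, 21.2, 16.9 and 10.8 CPM in posterior blastemas, at 20.1, 31.5, 10.9, 21.4 and 15.5 CPM in anterior blastemas, and at 6.91, 1.28 and 2.02 CPM in uninjured tissue. In 4 of 5 U0126 libraries PRRX1 was below every posterior library, and replicate 4 was within the posterior range. Anterior and posterior libraries overlapped widely, and all of them were above the uninjured ones. The log2 fold change of PRRX1 with U0126 over posterior blastemas was −1.45 ± 0.66 (SE), with an edgeR adjusted p of 0.188. Without U0126 replicate 4, the highest library of its group, it was −2.28, with an edgeR adjusted p of 0.0260. Of 9 fits that each left out 1 library, only that 1 called PRRX1, and the edgeR adjusted p ran up to 0.427. The log2 fold change was 2.54 ± 0.81 (SE) in anterior blastemas and 2.62 ± 0.83 (SE) in posterior blastemas over uninjured tissue, with edgeR adjusted p of 0.108 and 0.0893. Without uninjured replicate 1 they were 3.59 and 3.67, with edgeR adjusted p of 0.0230 and 0.0347. In 8 and 7 fits that each left out 1 library, only that fit called PRRX1. Its log2 fold changes went down to 2.15 and 2.23, and the edgeR adjusted p up to 0.361 and 0.266.

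PRRX1 reads per PRRX2 read were 0.0951 to 0.445 in posterior blastemas with U0126 and 0.0981 to 0.166 in posterior blastemas. The ratio was 0.144 to 0.251 in anterior blastemas and 0.0718 to 0.172 in uninjured tissue. The ranges of all 4 groups overlapped, and this ratio was a description with no test, chosen after the data were seen.

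MSX2, one of the msh factors, was at 34.5, 17.1, 25.8, 74.7 and 5.22 CPM in posterior blastemas with U0126. It was at 69.8, 46.2, 41.1 and 21.4 CPM in posterior blastemas, at 120, 109, 60.3, 34.2 and 35.7 CPM in anterior blastemas, and at 59.2, 3.11 and 13.1 CPM in uninjured tissue. All groups overlapped. Anterior replicates 1 and 2 had the highest levels, and U0126 replicate 4 was above every posterior library. The log2 fold change with U0126 over posterior blastemas was −0.50 (95% interval −2.09 to 1.08), with an edgeR adjusted p of 0.740, and an interval of this width covers both a fall and a rise.

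MSX1 had few reads. It was at 0.609, 0.295, 0.499, 2.03 and 0 CPM in posterior blastemas with U0126, at 0.944, 0.626, 0.304 and 0 CPM in posterior blastemas, at 4.01, 4.13, 1.10, 0.959 and 0.914 CPM in anterior blastemas, and at 1.16, 0.173 and 0 CPM in uninjured tissue. The 3 libraries with 0 reads, U0126 replicate 5, posterior replicate 4 and uninjured replicate 3, allow up to 0.0771, 0.0654 and 0.0818 CPM, by a limit of 3 reads that covers counting error only. Anterior replicates 1 and 2, with 218 and 228 reads, were above every other library. The other anterior libraries lay inside the U0126 and uninjured ranges, and 2 of these 3 were above every posterior library. The log2 fold change was −2.24 ± 1.25 (SE) in posterior over anterior blastemas, with an edgeR adjusted p of 0.607.

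MSX2 reads per PRRX2 read were 0.495 to 2.91 in posterior blastemas with U0126, against 0.195 to 0.403 in posterior blastemas, and these ranges did not overlap. The ratio was 0.333 to 1.30 in anterior blastemas and 0.3901 to 1.47 in uninjured tissue, overlapping the U0126 range. It was chosen after the data were seen and not tested, and the share of other gene pairs that separate likewise was not computed. PRRX2 alone also separated U0126 from posterior libraries, so the ratio is no separate difference.

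SALL4, the spalt-family factor, was at 10.3, 9.61, 9.15, 21.3 and 4.29 CPM in posterior blastemas with U0126. It was at 57.4, 40.0, 28.97 and 21.9 CPM in posterior blastemas, at 41.9, 42.4, 28.9, 19.5 and 22.8 CPM in anterior blastemas, and at 19.2, 1.85 and 0.327 CPM in uninjured tissue. U0126 and posterior libraries did not overlap, by a small margin between U0126 replicate 4 and posterior replicate 4. Uninjured replicate 1 was just below the lowest anterior library. The log2 fold change was −1.76 ± 0.73 (SE) with U0126 over posterior blastemas, with an edgeR adjusted p of 0.146. Without both libraries that stood apart it was −1.57, with an edgeR adjusted p of 0.0418. In anterior blastemas over uninjured tissue it was 2.12 ± 0.87 (SE), with an edgeR adjusted p of 0.181. Without uninjured replicate 1 it was 4.82, with an edgeR adjusted p of 0.00488. Over 8 fits that each left out 1 library it ranged from 1.58 to 4.82, with edgeR adjusted p up to 0.420.

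LMO2, the LIM-only adaptor, was at 2.04, 1.73, 1.67, 1.29 and 3.24 CPM in posterior blastemas with U0126. It was at 2.62, 2.80, 2.36 and 2.18 CPM in posterior blastemas, at 4.43, 4.27, 3.25, 3.44 and 2.98 CPM in anterior blastemas, and at 1.52, 3.29 and 2.7 CPM in uninjured tissue. Every posterior library was below every anterior library. U0126 replicate 5 was the highest of its group for LMO2 and the lowest for 6 other regulators. The log2 fold change was −0.56 ± 0.27 (SE) in posterior over anterior blastemas, with an edgeR adjusted p of 0.537. With U0126 over anterior blastemas it was −0.88 ± 0.26 (SE), with an edgeR adjusted p of 0.0926, and without U0126 replicate 5 the edgeR adjusted p was 0.0251. Leaving out that library lowers the U0126 level of LMO2 by itself, so this call is no separate support. Of 10 fits that each left out 1 library, only that 1 called LMO2, and the edgeR adjusted p ran up to 0.234.

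KAZALD1, the secreted Kazal-type protein gene, had 1, 12, 31, 45 and 8 reads in posterior blastemas with U0126, or 0.0234, 0.253, 0.672, 1.10 and 0.206 CPM. It had 367, 117, 119 and 69 reads in posterior blastemas, or 7.70, 3.18, 2.78 and 1.504 CPM. Anterior blastemas had 0.276, 0.181, 0.342, 0.983 and 0.234 CPM, and uninjured tissue had 0.0241, 0.321 and 1.01 CPM. Every posterior library was above every library of the other 3 groups, which overlapped each other, and posterior replicate 1 was the highest. Its mean was 0.451 ± 0.433 CPM with U0126 (SD, n = 5), 3.79 ± 2.7 CPM in posterior blastemas (SD, n = 4), 0.403 ± 0.330 CPM in anterior blastemas (SD, n = 5) and 0.451 ± 0.505 CPM in uninjured tissue (SD, n = 3). KAZALD1 fell with U0126 relative to posterior blastemas by 3.07 ± 0.90 (SE) on the log2 scale, 8.37-fold lower, with an edgeR adjusted p of 0.0490, just under the threshold of 0.05.

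KAZALD1 also had the largest fold change among the 8 between posterior and anterior blastemas, a log2 value of 3.24 (95% interval 1.30 to 5.17). Its edgeR adjusted p was 0.377, and DESeq2 gave an adjusted p of 0.0348. Over uninjured tissue, the log2 fold change of posterior blastemas was 3.07 ± 1.11 (SE), with an edgeR adjusted p of 0.125.

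FSTL1, the secreted follistatin-like gene, was at 483, 751, 532, 1375 and 481 CPM in posterior blastemas with U0126. It was at 2451, 1902, 1784 and 1938 CPM in posterior blastemas, at 1613, 2332, 1086, 1648 and 1520 CPM in anterior blastemas, and at 965, 374 and 749 CPM in uninjured tissue. Its posterior libraries lay close together, the U0126 libraries were all below them, and U0126 replicate 4 was the only U0126 library above the uninjured range. FSTL1 fell with U0126 relative to posterior blastemas by 1.48 ± 0.33 (SE) on the log2 scale, 2.79-fold lower, with an edgeR adjusted p of 0.0201. Over uninjured tissue its log2 fold change was 1.24 ± 0.37 (SE) in anterior blastemas and 1.54 ± 0.39 (SE) in posterior blastemas, with edgeR adjusted p of 0.0971 and 0.0521.

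In order of group means, PRRX1, PRRX2, SALL4 and FSTL1 ran from uninjured tissue through U0126 and anterior to posterior blastemas. Neighbours in that order overlapped at every step. Between U0126 and anterior blastemas, only 1 of 5 U0126 libraries reached the anterior range for each of the 4 genes. None of the 4 was called there, with edgeR adjusted p between 0.0743 and 0.287. MSX2 ran from uninjured tissue through U0126 and posterior to anterior blastemas, and all neighbours overlapped. The order of MSX1 was uninjured, posterior, U0126 and anterior, and that of LMO2 was U0126, posterior, uninjured and anterior. KAZALD1 ran from anterior through U0126 and uninjured to posterior, and only its last step was free of overlap.

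**Figure D2:**
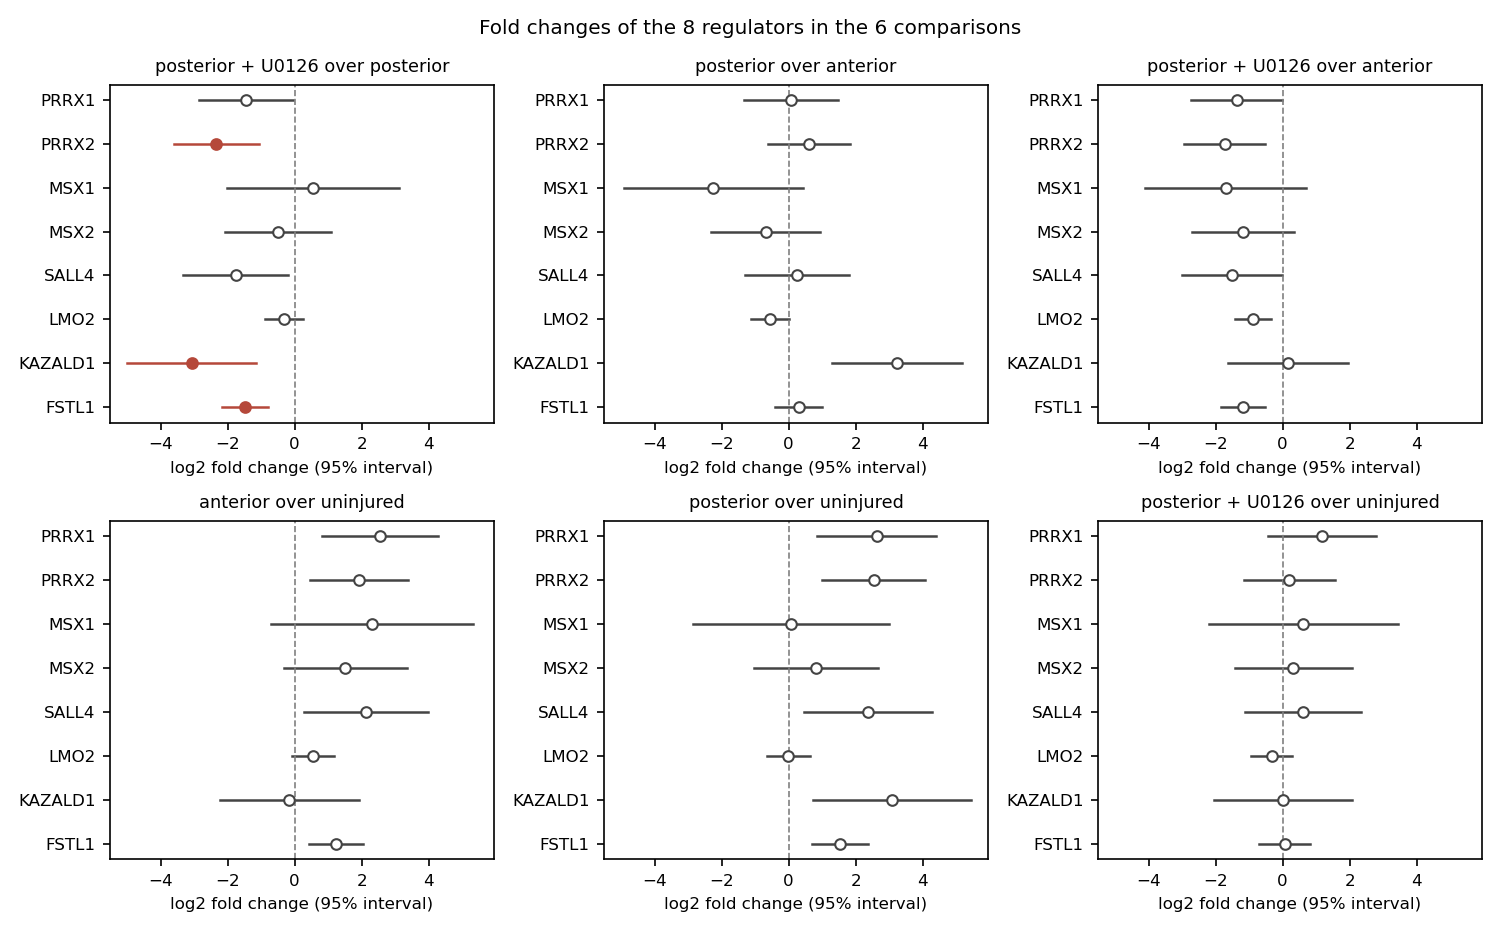
log2 fold changes of the 8 regulators (horizontal axes, log2 scale) with 95% intervals in the 6 comparisons, filled where edgeR's adjusted p was under 0.05. The filled points are PRRX2 at −2.34, KAZALD1 at −3.07 and FSTL1 at −1.48 for U0126 over posterior blastemas.

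The effect of ERK pathway inhibition was addressed by posterior blastemas with and without U0126. By edgeR 3 regulators were called lower, where 3.99% of all genes tested were called lower, and 0 were called higher, where 4.13% of all genes were. PRRX2, SALL4, KAZALD1 and FSTL1 were lower with no overlap between groups, which held for 6.02% of all genes. Without both libraries that stood apart, SALL4 joined PRRX2, KAZALD1 and FSTL1 and 4 were called lower, against 5.92% of all genes. The median log2 fold change of the 8 was −1.46, and that of all genes was −0.00.

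Single libraries weighed on these calls. PRRX2 kept its call in 4 of 9 fits that each left out a library of the 2 groups, with edgeR adjusted p between 0.00272 and 0.1002. FSTL1 kept it in 6 of 9, between 0.00263 and 0.0685. KAZALD1 kept it in 1 of 9, between 0.0251 and 0.161, and that fit, which left out U0126 replicate 4, gave a log2 fold change of −3.70. Without that library PRRX1 was called as well, and 6.75% of all genes were called lower. The largest adjusted p of all 3 genes came without posterior replicate 1, and their log2 fold changes without it were −1.97, −1.37 and −2.46 for PRRX2, FSTL1 and KAZALD1.

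**Figure D3:**
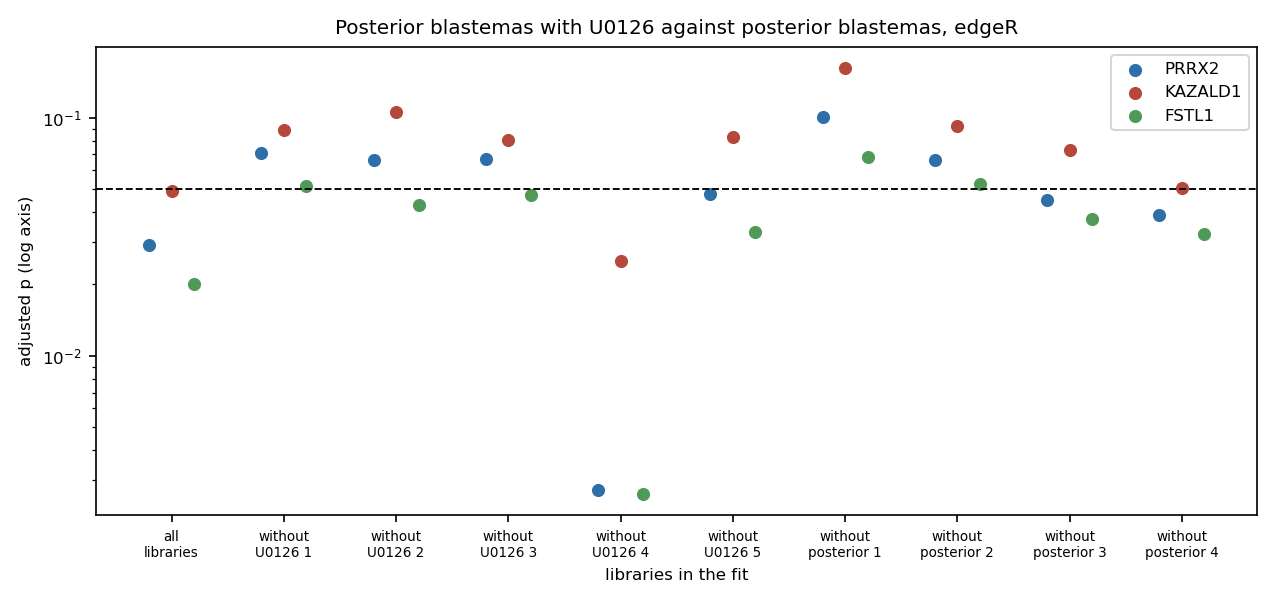
Adjusted p of PRRX2, KAZALD1 and FSTL1 (vertical axis, log scale) for U0126 over posterior blastemas with all libraries and without each library in turn, edgeR. The dashed line is the threshold of 0.05; without U0126 replicate 4 the points of PRRX2 and FSTL1 drop to 0.00272 and 0.00263, and without posterior replicate 1 all 3 lie above the line.

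Whether the positional origin of a blastema goes with different levels was addressed by posterior and anterior blastemas. None of the 8 regulators was called by edgeR, where 0.00516% of all genes were. At an unadjusted p under 0.05, KAZALD1 passed, as did 9.56% of all genes, and DESeq2 called KAZALD1 and 0.656% of all genes. KAZALD1 was higher with no overlap, as were 2.78% of all genes, and LMO2 was lower with no overlap, as were 2.07% of all genes. PRRX1, PRRX2, SALL4 and FSTL1 had log2 fold changes of 0.08 (95% interval −1.32 to 1.48), 0.61 (−0.62 to 1.84), 0.25 (−1.29 to 1.79) and 0.30 (−0.39 to 0.99). Intervals of this width leave differences of 2-fold or more possible in the first 3 genes.

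Posterior blastemas with U0126 were also set against anterior blastemas. By edgeR 0 regulators were called, where 1.18% of all genes were. At an unadjusted p under 0.05, 5 regulators passed, against 17% of all genes, and DESeq2 called PRRX2, LMO2 and FSTL1, against 6.88% of all genes. Without both libraries that stood apart, edgeR called LMO2, against 4.54% of all genes. On the log2 scale FSTL1 differed by −1.18 ± 0.31 (SE) and PRRX2 by −1.73 ± 0.56 (SE), with edgeR adjusted p of 0.0743 and 0.131. Without U0126 replicate 4, PRRX1, PRRX2 and FSTL1 were called, against 4.28% of all genes. In that fit PRRX1 and PRRX2 had log2 fold changes of −2.20 and −2.58, with edgeR adjusted p of 0.0494 and 0.0102, and without U0126 replicate 5 LMO2 was called, against 2.22% of all genes.

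Anterior blastemas against uninjured tissue asked which regulators accompany a nerve-induced blastema. By edgeR 0 regulators were called, where 0.206% of all genes were. PRRX1, PRRX2, SALL4 and FSTL1 were higher with no overlap, as were 5.8% of all genes. These 4 also passed at an unadjusted p under 0.05, as did 21.5% of all genes, and DESeq2 called PRRX1, PRRX2 and FSTL1, against 9.17% of all genes. Without both libraries that stood apart, edgeR called PRRX1, PRRX2, MSX2, SALL4 and FSTL1, against 22.7% of all genes. Leaving out uninjured replicate 1 alone gave 4 calls, for PRRX1, MSX2, SALL4 and FSTL1, against 18.5% of all genes. MSX2 had a log2 fold change of 1.51 ± 0.87 (SE) with all libraries, with an edgeR adjusted p of 0.318. Without uninjured replicate 1 it was 3.15, with an edgeR adjusted p of 0.0393. Over 8 fits that each left out 1 library it ranged from 0.99 to 3.15, with edgeR adjusted p up to 0.620.

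In posterior blastemas against uninjured tissue, edgeR called 0 regulators and 2.1% of all genes. PRRX1, PRRX2, SALL4, KAZALD1 and FSTL1 were higher with no overlap, as were 8.94% of all genes. At an unadjusted p under 0.05 the same 5 passed, against 21.3% of all genes, and DESeq2 called these 5, against 11.1% of all genes. Without both libraries that stood apart, edgeR called PRRX1, PRRX2, SALL4 and FSTL1, against 15.7% of all genes, and leaving out uninjured replicate 1 alone gave the same 4, against 9.77%. In that last fit SALL4 had a log2 fold change of 5.07, with an edgeR adjusted p of 0.00894. With all libraries it was 2.37, with an edgeR adjusted p of 0.142. Over 7 fits that each left out 1 library it ranged from 1.84 to 5.07, with edgeR adjusted p up to 0.361. The anterior and posterior comparisons share their uninjured libraries.

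Posterior blastemas with U0126 were last set against uninjured tissue. By edgeR 0 regulators and 0% of all genes were called. At an unadjusted p under 0.05, 0 regulators passed, against 9.73% of all genes, and DESeq2 called 0 regulators, against 0.191% of all genes. FSTL1 had a log2 fold change of 0.06 (95% interval −0.70 to 0.82) and PRRX2 one of 0.20 (−1.16 to 1.55). Without uninjured replicate 1 and U0126 replicate 5, edgeR called PRRX1 and SALL4 higher and LMO2 lower, against 22% of all genes in either direction, and without uninjured replicate 1 alone it called SALL4, against 8.65%. SALL4 had a log2 fold change of 0.61 with all libraries and of 3.31 in that fit, with edgeR adjusted p of 0.771 and 0.0218. Over 8 fits that each left out 1 library it ranged from 0.07 to 3.31, with edgeR adjusted p up to 0.999.

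Within groups the regulators moved by library. U0126 replicate 4 had the highest level of 7 of the 8 in its group, all but LMO2, and U0126 replicate 5 had the lowest level of 6. Posterior replicate 1 was the highest of its group for 7, again all but LMO2, and posterior replicate 4 was the lowest for 6. Uninjured replicate 1 was the highest of its group for PRRX1, PRRX2, MSX1, MSX2, SALL4 and FSTL1, and the lowest for LMO2 and KAZALD1.

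**Figure D4:**
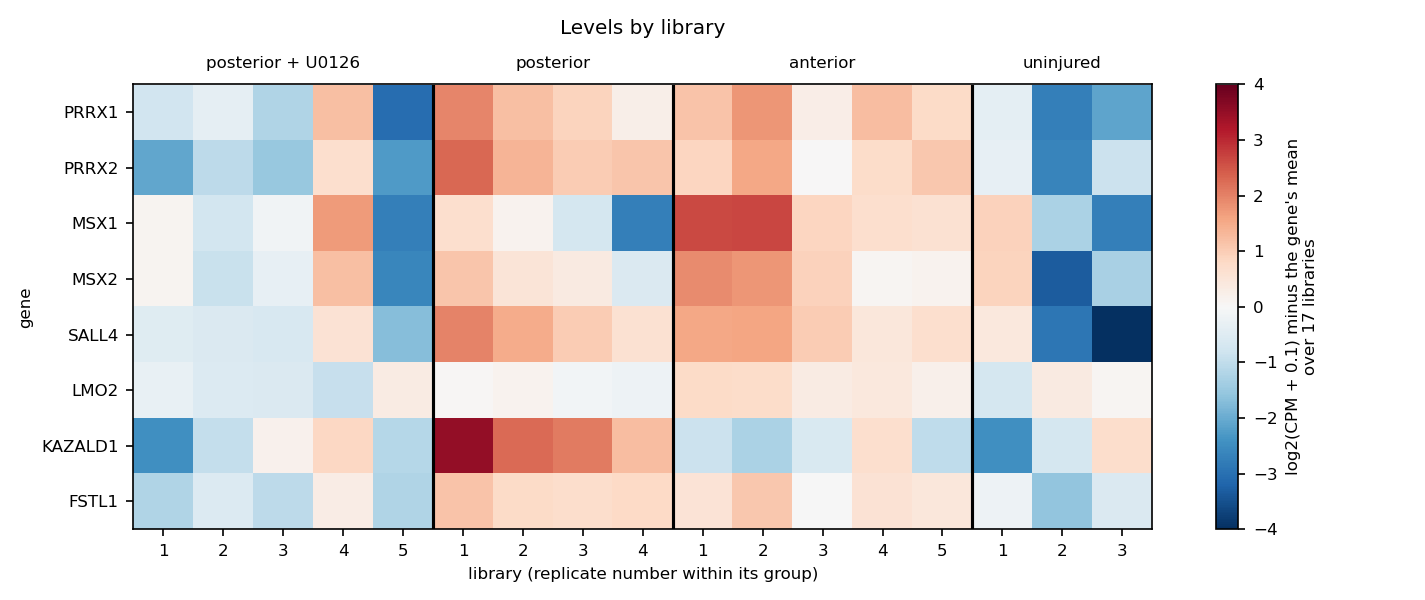
Level of each regulator (rows) in each of the 17 libraries (columns, by group), as log2(CPM + 0.1) minus the gene's mean over all libraries. The columns of U0126 replicate 4 and posterior replicate 1 are high in their groups for 7 regulators, and the LMO2 row varies least.

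Across the 17 libraries, levels in log2 CPM of FSTL1 and PRRX2 had a Pearson r of 0.991, and PRRX1 and PRRX2 had one of 0.914. MSX1 and MSX2 had an r of 0.800, and PRRX1 and MSX2 one of 0.868. LMO2 stood apart, with r between 0.00 and 0.23 with the other 7, and KAZALD1 had an r of at most 0.561. These correlations are descriptions, since libraries of a group share their treatment, tissue makeup and the outlying libraries above.

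The genes whose pattern was most like each regulator were taken from all tested genes with a symbol, by Pearson r over the 17 libraries. For PRRX2 they were FSTL1 (0.991), CCDC88A (0.980) and TMEFF1 (0.979), and for FSTL1 they were PRRX2, SH3PXD2B (0.984) and the mesenchymal cadherin gene CDH11 (0.980). CDH11 averaged 58.1 ± 46.3 CPM in posterior blastemas with U0126 (SD, n = 5), 157 ± 31.8 CPM in posterior blastemas (SD, n = 4), 143 ± 59.6 CPM in anterior blastemas (SD, n = 5) and 50.4 ± 27.3 CPM in uninjured tissue (SD, n = 3). For PRRX1 they were FBLN7 (0.981), CLCF1 (0.979) and TMEM35A (0.979), and for SALL4 they were PAMR1 (0.979), RCC2 (0.979) and SPAG8 (0.977).

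MSX2 was most like the homeobox gene DLX5 (0.951), the BMP pseudoreceptor gene BAMBI (0.949) and the zinc finger gene SP8 (0.943). DLX5 averaged 7.75 ± 3.10 CPM in posterior blastemas with U0126 (SD, n = 5), 8.94 ± 3.38 CPM in posterior blastemas (SD, n = 4), 13.3 ± 4.43 CPM in anterior blastemas (SD, n = 5) and 6.40 ± 6.15 CPM in uninjured tissue (SD, n = 3). MSX1 was most like MPLKIP (0.923), PRPF39 (0.901) and RACGAP1 (0.898). LMO2 was most like AMPD2 (0.868), the leukocyte receptor gene GPR183 (0.853) and the integrin gene ITGAE (0.841), and KAZALD1 like TJAP1 (0.897), BCAT1 (0.887) and GRIA2 (0.876). In bulk tissue these r values do not tell which cells gave the reads. Whether MSX2 and LMO2 were read from mesenchyme or from other cells was not tested.

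Markers of cell types were compared as well, and they did not all move the way the regulators did. The 11 connective tissue markers summed to 5870 to 15915 CPM in posterior blastemas with U0126, against 20021 to 30701 CPM in posterior blastemas. They summed to 12308 to 21018 CPM in anterior blastemas and to 12152 to 20086 CPM in uninjured tissue. All 11 were lower with U0126 than in posterior blastemas and 5 were called, with a median log2 fold change of −1.15. Of 12 wound epithelium and epidermis markers, 9 were higher and 3 were called higher, while 3 were lower and 1 was called lower. Among the lower ones, KRT18 averaged 93.7 CPM with U0126 against 240 CPM in posterior blastemas, and KRT8 averaged 162 against 416 CPM. Of all genes, 3.99% were called lower and 4.13% higher. The 9 cartilage and bone markers summed to 188 to 501 CPM in posterior blastemas with U0126, 610 to 880 CPM in posterior blastemas, 451 to 705 CPM in anterior blastemas and 228 to 418 CPM in uninjured tissue, and all 8 tested were lower with U0126 than in posterior blastemas, 2 of them called. The 8 skeletal muscle markers spread widely, over 545 to 10778 CPM with U0126, 1578 to 11350 CPM in posterior blastemas, 1.80 to 3020 CPM in anterior blastemas and 825 to 22919 CPM in uninjured tissue. In bulk tissue, fewer cells of a type and less RNA per cell cannot be told apart, and the part of tissue makeup in the fall of PRRX2, KAZALD1 and FSTL1 was not tested.

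Set per 1000 CPM of the connective tissue markers, PRRX2 was at 0.703 to 5.09 CPM in posterior blastemas with U0126 and at 3.58 to 10.6 CPM in posterior blastemas, and the ranges overlapped through U0126 replicate 4. FSTL1 was at 32.1 to 90.4 CPM with U0126 and at 63.1 to 104 CPM in posterior blastemas, so 4 of 5 U0126 libraries lay inside the posterior range on this scale. KAZALD1 was at 0.00399 to 0.114 CPM with U0126 and at 0.0490 to 0.328 CPM in posterior blastemas. For PRRX2, uninjured tissue was at 0.602 to 3.31 CPM, below every anterior library, at 4.01 to 7.50 CPM, and every posterior library. On this scale the lowest posterior values of PRRX1 and FSTL1, 0.351 and 63.1 CPM, were below the highest uninjured ones, 0.569 and 79.4 CPM. Every anterior library was above uninjured tissue for both genes. PRRX1, PRRX2 and FSTL1 were already known to separate from uninjured tissue in CPM. The share of all genes that separate likewise on this scale was not computed. SALL4 reached down to 0.714 CPM in posterior and 1.05 CPM in anterior blastemas, and both groups overlapped uninjured tissue, which reached 1.58 CPM. KAZALD1 also overlapped between posterior blastemas and uninjured tissue, which reached 0.0502 CPM. These ratios were chosen after the data were seen and carry no test. The marker sum is unweighted, and COL1A1, COL1A2 and COL3A1 were its largest members. They averaged 3093, 3225 and 1895 CPM with U0126, and 6605, 6500 and 4559 CPM in posterior blastemas. The markers were themselves lower with U0126 than in posterior blastemas, so the ratio is no level per connective tissue cell.

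**Figure D5:**
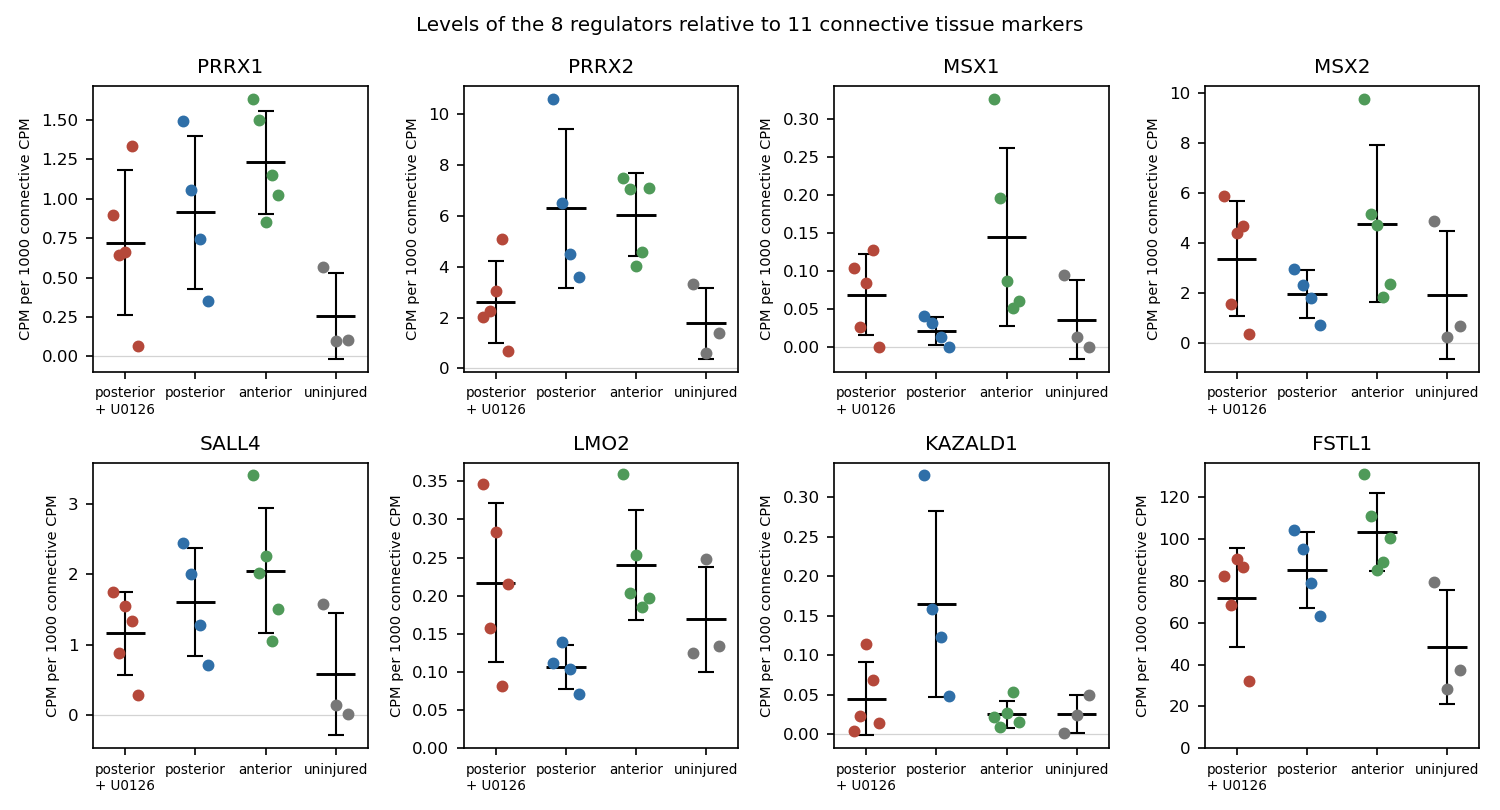
Level of each regulator per 1000 CPM summed over 11 connective tissue markers (vertical axes, linear), with a point per library, the group mean as a bar and the SD as whiskers. FSTL1 spans 32.1 to 90.4 with U0126 and 63.1 to 104 in posterior blastemas, which overlap, unlike its CPM. The marker sum is unweighted, with COL1A1, COL1A2 and COL3A1 as its largest members. The scaling does not show that a regulator was read from connective tissue cells, which was not tested.

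Markers of macrophages, endothelium and red blood cells are of interest for LMO2, an adaptor of blood cell factors. The 9 macrophage markers summed to 333 to 594 CPM in posterior blastemas with U0126 and 653 to 1230 CPM in posterior blastemas. They summed to 750 to 1277 CPM in anterior blastemas and 374 to 634 CPM in uninjured tissue. The complement gene C1QB, one of the 3 macrophage markers called, fell with U0126 relative to posterior blastemas by 1.33 ± 0.23 (SE) on the log2 scale, with an edgeR adjusted p of 0.0117. Of all genes, 3.99% were called lower in that comparison. The 9 endothelium markers summed to 35.9 to 162 CPM with U0126 and 111 to 155 CPM in posterior blastemas. They summed to 92.3 to 178 CPM in anterior blastemas and 54.5 to 122 CPM in uninjured tissue. The 4 red blood cell markers summed to 97.1 CPM in U0126 replicate 5, and to 3.14 to 22.3 CPM in the other U0126 libraries. Macrophage, endothelium and red blood cell sums overlapped between anterior and posterior blastemas, where LMO2 did not. The part of these cells in the LMO2 levels was not tested.

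Other genes known from limbs and blastemas, mostly of mesenchyme, a list also chosen with earlier results of these data known, were counted beside the 8. Of 25 tested, 24 had lower levels with U0126 than in posterior blastemas and 5 were called lower, with a median log2 fold change of −1.24, where 50.2% of all genes were lower and 3.99% were called lower. The growth factor receptor gene PDGFRA fell to 22.2 ± 8.42 CPM with U0126 (SD, n = 5), against 61.5 ± 12.7 CPM in posterior blastemas (SD, n = 4), with an edgeR adjusted p of 0.0167. The intermediate filament gene VIM and the zinc finger factor gene SNAI1 fell by 1.08 ± 0.26 (SE) and 1.71 ± 0.46 (SE) on the log2 scale, with edgeR adjusted p of 0.0242 and 0.0362. In posterior over anterior blastemas 23 of the 25 were higher and 0 were called, with a median of 0.33. The median of all genes there was −7.75e-05, and 0.00516% of them were called. All 11 connective tissue markers were higher there as well, with a median of 0.58 and 0 called. PDGFRA is in both lists. The part of tissue makeup in this count was not tested. In anterior blastemas over uninjured tissue 15 of the 25 and 7 of the 11 markers were higher. None of either list was called, where 0.206% of all genes were. The medians there were 0.62 for the 25, 0.46 for the markers and −0.0163 for all genes.

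Genes around the single regulators were counted in the same way for U0126 over posterior blastemas. Of 20 tested BMP ligands, receptors, SMADs, inhibitors and targets, 18 were lower and 2 were called lower, where 50.2% and 3.99% of all genes were. The list bears on MSX1, MSX2 and FSTL1, and its genes BMP4 and ID1 were absent from the gene rows. The ligand gene BMP7 fell by 0.59 ± 0.16 (SE) and the inhibitory SMAD gene SMAD6 by 1.41 ± 0.40 (SE) on the log2 scale, with edgeR adjusted p of 0.0361 and 0.0426. Of 7 tested genes of the SALL family and of pluripotency, 5 were lower and 0 were called, against the same shares. POU5F1 and NANOG of that list were absent from the gene rows, and LIN28A did not pass the filter.

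Of 13 tested partners of LMO2 and early blood or vessel factors, 4 were called lower and 1 higher, where 3.99% and 4.13% of all genes were. The blood factor genes RUNX1 and FLI1 fell by 0.94 ± 0.18 (SE) and 1.32 ± 0.28 (SE) on the log2 scale, with edgeR adjusted p of 0.0130 and 0.0163. Another LIM-only gene of the list, LMO4, rose by 0.92 ± 0.20 (SE), with an edgeR adjusted p of 0.0177. LMO2 itself was not called and had a log2 fold change of −0.32 (95% interval −0.89 to 0.25).

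Of 12 tested genes of the IGF axis, which include the IGF-binding proteins, 10 were lower and 4 were called lower, where 50.2% and 3.99% of all genes were. The binding protein gene IGFBP3 fell to 12.1 ± 1.77 CPM with U0126 (SD, n = 5), against 43.2 ± 7.64 CPM in posterior blastemas (SD, n = 4), with an edgeR adjusted p of 0.0100. IGFBP5 and the growth factor gene IGF2 fell by 1.93 ± 0.36 (SE) and 1.55 ± 0.32 (SE) on the log2 scale, with edgeR adjusted p of 0.0129 and 0.0157. In posterior over anterior blastemas, 10 of the 12 were higher and 0 were called, with a median of 0.43. For all genes the median was −7.75e-05, and 0.00516% were called. All 11 connective tissue markers were higher in that comparison too, with a median of 0.58.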

How the data were processed

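The authors deposited 1 table of raw read counts per library, with 3 count columns, unstranded, first strand and second strand. Per the submitters' processing notes, the authors used Trimmomatic 0.39 and STAR 2.7.3a. Genome build and annotation: not given in the sources used here. The second-to-first strand ratio was 1.90 to 2.16, so the unstranded counts were used, and overlapping or antisense genes cannot be told apart. For all 8 regulators, the unstranded reads equalled the sum of both strands. The 4 totals of reads outside genes (14.2% to 16.4%) were left out.

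Genes passing edgeR's filterByExpr (19398) were fitted in 1 model of 4 groups without a block, after TMM scaling (0.862 to 1.08), with edgeR 4.0.16 under R 4.3.3 (quasi-likelihood F test with robust dispersion, Benjamini-Hochberg adjustment over all genes tested, threshold 0.05). SEs were implied by the F test (size of the log2 fold change over the root of F). CPM and log2 CPM (prior count 2) used the scaled totals. No 2 libraries of the same group were repeats of each other (chi-square over its degrees of freedom 66.1 to 646), and pairs across groups were not compared. The test was checked on simulated counts. Alternatives were other scalings, filters, count columns, groups and tools (DESeq2 1.42.0), a replicate block, and leaving out libraries. Shares of all genes called by DESeq2 are of the genes it gave an adjusted p, 18598 to 19351 by comparison. Shares in fits without libraries are of the genes tested in that fit. Figures used matplotlib 3.10.9 in Python 3.11.15.

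All 8 regulators are named, with the 3 most alike genes each and up to 3 genes per list with the smallest adjusted p for U0126 over posterior blastemas. The members and lists were chosen with earlier results of these data known. Library names of anterior and uninjured replicates 1 to 3 share their first part. The labels do not say what that part marks, so numbers were not taken to pair samples. Deviations of these pairs from their group means correlated between −0.24 and 0.30. A pair without a shared first part reached 0.35, so these values cannot decide whether samples were paired.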

Additional observations from a re-analysis of the deposited data

Results flagged for a closer look

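In 24 groups of 4 or 5 libraries, the highest and lowest library of each regulator were set against the others by Dixon's test, and 2 libraries stood out. For normally distributed values chance gives about 1 in 20 groups. The test was run on CPM and not on log values, and SDs could be as large as means (29.2 ± 29.5 CPM for PRRX2 with U0126, SD, n = 5). The chance rate for such values is not known here. PRRX2 was at 81.0 CPM in U0126 replicate 4, with the next library of the group at 24.7 CPM and the lowest at 10.5 CPM, a gap of 0.799 of the group's range. KAZALD1 was at 0.983 CPM in anterior replicate 4, with the next library at 0.342 CPM and the lowest at 0.181 CPM, a gap of 0.800 of the range.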

How the results depend on the processing

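Of the regulators' log2 fold changes recomputed under the alternatives, 744 kept their direction and their side of the threshold, 22 lost a call, 42 gained one, and 40 turned direction, 0 of them with an adjusted p under 0.05. For U0126 over posterior blastemas, 3 regulators were called and 1, FSTL1, with the replicate number as a block. KAZALD1 lost its call with total-count scaling (edgeR adjusted p 0.0527), without the filter (0.0586), with the replicate block (0.0649) and in a fit of only the 2 groups compared (0.0638). PRRX2 lost it with the block (0.0512) and with the 2 groups alone (0.0603), where SALL4 was called (0.0491). In posterior blastemas over uninjured tissue, a stricter filter (CPM of 1 in 3 libraries) called 1, FSTL1. DESeq2 called 1 in posterior over anterior blastemas, 3 in U0126 over anterior blastemas, 3 in anterior blastemas over uninjured tissue and 5 in posterior blastemas over uninjured tissue. Without both libraries that stood apart, the numbers were 1 in U0126 over anterior blastemas, 5 in anterior blastemas over uninjured tissue, 4 in posterior blastemas over uninjured tissue and 3 in U0126 over uninjured tissue. Leaving out each library in turn gave 0 to 4 regulators for U0126 over posterior blastemas, 0 to 0 for posterior over anterior blastemas, 0 to 3 for U0126 over anterior blastemas, 0 to 4 for anterior blastemas and 0 to 4 for posterior blastemas over uninjured tissue, and 0 to 1 for U0126 over uninjured tissue. The causes were not tested.

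Uncalled log2 fold changes turned direction as follows. For U0126 over uninjured tissue, KAZALD1 (0.0059) was −0.0152 with RLE scaling, −0.00912 with the stricter filter, −0.19 with the replicate block, −0.0200 with DESeq2 and −0.36 without both libraries, and PRRX2 and FSTL1 were −0.11 and −0.0570 with the block. Total-count scaling gave 0.0130 for KAZALD1 in anterior blastemas and 0.16 for LMO2 in posterior blastemas over uninjured tissue, and the block gave 0.0791 for the second. In posterior over anterior blastemas the block gave −0.18 for PRRX1 and −0.0269 for SALL4. Over single libraries left out, U0126 over posterior blastemas ranged from −0.41 to 1.15 for MSX1, and U0126 over anterior blastemas from −0.46 to 0.79 for KAZALD1. U0126 over uninjured tissue ranged from −0.62 to 1.37 for KAZALD1, −0.65 to 0.69 for PRRX2, −0.34 to 2.92 for MSX1, −0.29 to 1.96 for MSX2 and −0.31 to 0.37 for FSTL1. Posterior over anterior blastemas ranged from −0.29 to 0.31 for PRRX1 and −0.0386 to 0.44 for SALL4. Over uninjured tissue, posterior blastemas ranged from −0.54 to 2.37 for MSX1 and −0.26 to 0.24 for LMO2, and anterior blastemas from −0.79 to 1.198 for KAZALD1.

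Calls over all genes moved more. With edgeR, the block, the 2 groups alone, DESeq2 and both libraries left out, U0126 over posterior blastemas had 1576, 947, 983, 2968 and 2575 genes called, and posterior blastemas over uninjured tissue had 408, 45, 0, 2065 and 3108; the second had 265 without the filter. Anterior blastemas over uninjured tissue had 40, and 86 with RLE scaling, 74 with total counts, 142 with the stricter filter, 8 with the 2 groups alone, 1740 with DESeq2 and 4492 without both libraries. U0126 over anterior blastemas had 229, and 143 without the filter, 99 with the 2 groups alone, 1280 with DESeq2 and 898 without both libraries. U0126 over uninjured tissue had 0, and 37 with DESeq2 and 4344 without both libraries. Posterior over anterior blastemas had 1, and 4 with the 2 groups alone, 127 with DESeq2 and 0 with total counts, no filter or the block. Leaving out single libraries gave 127 to 2381, 0 to 1936, 0 to 3675, 36 to 828, 0 to 1714 and 0 to 0 genes in this order of comparisons. Total counts moved the median of all genes to 0.12 and 0.14 in anterior and posterior blastemas over uninjured tissue, and split the calls into 440 higher and 736 lower (802 and 774 with TMM) for U0126 over posterior blastemas, 44 and 30 (13 and 27) for anterior and 173 and 100 (168 and 240) for posterior blastemas over uninjured tissue. Same-numbered libraries did not deviate together in every pair; a paired fit of anterior and uninjured replicates 1 to 3 called 0 regulators and 56 genes.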
